A study of Mus musculus with 15 samples.

Results

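Methylation of histone H3 at lysine 9 (H3K9) was followed here through the transcripts of 10 genes that add it, remove it or bring the enzymes to their targets. The members, taken from a fixed list of gene symbols, were the writers Ehmt1, Ehmt2, Setdb1, Suv39h1 and Suv39h2, their partners Wiz and Trim28, and the erasers Kdm3a, Kdm3b and Kdm4c. They are 10 of the 55536 genes with deposited counts, and all 10 passed the filter on low counts that left 18090 genes for testing. The RNA-seq samples came from an induced mouse germ cell model, with 3 replicates in each of 5 groups. Naive ESCs were pluripotent stem cells kept in 2i and LIF, and EpiLCs were epiblast-like cells made from them with Activin A and bFGF for 48 h. D2PGCLCs, D4PGCLCs and D6PGCLCs were primordial germ cell-like cells collected on days 2, 4 and 6 of induction with 2 μg/ml doxycycline and no cytokines, and were sorted for the Stella-eGFP reporter of Dppa3, whereas the ESCs and EpiLCs were not sorted by it. All 5 groups, the ESCs and EpiLCs included, carried the same 4 doxycycline-inducible transgenes (4TF) on a Stella-eGFP background, with Prdm1, Prdm14 and Nanog brought in by piggyBac and Tfap2c by lentivirus, so there was no group without them. The sources used here do not say whether replicates were separate inductions or clones, so p-values measure the spread between these samples, which may be technical.

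H3K9 methylation marks silent chromatin. EHMT1 (GLP) and EHMT2 (G9a) work as a dimer that adds the mono- and dimethyl marks of silent euchromatin, with WIZ as a zinc finger partner of the dimer. SUV39H1 and SUV39H2 add the trimethyl mark at pericentromeric heterochromatin, and SETDB1 adds it at retroelements and imprinted regions, where TRIM28 (KAP1) recruits it for KRAB zinc finger proteins. KDM3A and KDM3B remove the mono- and dimethyl marks, and KDM4C removes the trimethyl mark and also acts on H3K36. Mouse germ cell precursors are known for losing H3K9 dimethylation across the genome soon after they are specified. The counts describe transcripts and not the marks or the proteins.

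Between 22555021 and 42725681 counts per sample lay on genes, and 18061 genes had a count in D6PGCLC replicate 1, which stood apart from the 21103 to 24343 genes in the 14 other samples. The ESCs and EpiLCs carried their defining markers. In ESCs the 5 naive markers summed to 2060 to 2144 CPM (counts scaled to library totals, without TMM factors). In EpiLCs the 5 EpiLC markers summed to 2642 to 2851 CPM. Of the 7 germ cell markers on the list, Dppa3 was the gene of the sorted reporter and Tfap2c, Prdm1 and Prdm14 were transgenes, so their levels in PGCLCs check nothing. The other 3 were higher in all 9 PGCLC samples than in any ESC or EpiLC sample: Itgb3 had group means of 120.5 to 156 CPM against 8.13 CPM in ESCs and 3.36 CPM in EpiLCs, Nanos3 of 7.92 to 17.6 CPM against 3.02 and 1.17 CPM, and Dnd1 stood at 18.8 to 50.4 CPM over the samples against 6.74 to 13.5 CPM. Markers of other cell types also moved with the groups. Fibroblast markers (Col1a1, Col1a2, Col3a1, Thy1, Dcn and Postn) summed to 22.4 to 23.5 CPM in EpiLCs, where all 6 had a count, to 7.67 to 8.39 CPM in ESCs, where Col3a1, Dcn and Postn were at 0, and to 0.867 to 2.18 CPM in PGCLCs, where Postn was at 0 on day 2 and Dcn on days 4 and 6. The EpiLC sum was mostly Thy1 (mean 12.0 CPM) and Dcn (5.46 CPM). Col1a1 stood there at 3.37 CPM, Col1a2 at 1.43 CPM, Col3a1 at 0.735 CPM and Postn at 0.0593 CPM. The ESC sum was mostly Thy1 (5.82 CPM). Endoderm markers (Sox17, Gata6 and Foxa2), of which all 3 had a count in every group, summed to 7.40 to 16.6 CPM in D6PGCLCs and to 0.287 to 2.89 CPM in the other 4 groups. The day 6 sum was mostly Gata6 (mean 10.1 CPM), beside Sox17 at 1.39 CPM (1.08 CPM in ESCs) and Foxa2 at 0.0283 CPM, which was highest in EpiLCs (0.976 CPM). Mesoderm markers (T, Mixl1 and Hand1), likewise all 3 counted in every group, summed to 11.3 to 16.9 CPM in D6PGCLCs, 15.3 to 16.9 CPM in ESCs and 0.919 to 4.47 CPM elsewhere. These similar sums rested on different genes, T in ESCs (mean 14.9 CPM, against 0.0259 CPM in D6PGCLCs) and Hand1 in D6PGCLCs (mean 14.1 CPM, against 0.321 CPM in ESCs). Neural markers (Sox1, Pax6 and Neurod1), also all counted, summed to 10.3 to 14.8 CPM in EpiLCs, 6.83 to 11.3 CPM in D6PGCLCs and 2.70 to 10.8 CPM elsewhere. These sums too rested on different genes. Neurod1 had a mean of 8.10 CPM in EpiLCs and 0.594 CPM in D6PGCLCs, and Sox1 of 0.998 and 1.10 CPM. Pax6 had a mean of 2.82 CPM in EpiLCs, 8.85 CPM in D4PGCLCs and 6.64 CPM in D6PGCLCs. The part of all these markers in the results below was not tested.

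Every member was transcribed in every sample, from 13.0 CPM for Suv39h1 in an ESC sample to 1534 CPM for Trim28 in another. All CPM from here on, except those of the marker genes, were also scaled with TMM factors. Per length, as TMM-normalized RPKM over the exons of each gene, Trim28 was the highest of the 10 in all 5 groups, at 351 ± 25.1 RPKM in ESCs and 262 ± 22.4 RPKM in D6PGCLCs (SD, n = 3). The lowest was Suv39h1 in ESCs (2.74 ± 0.259 RPKM), and in each of the other 4 groups it was Wiz, at 3.75 to 5.63 RPKM. The length of a gene was that of the exons of all its transcripts joined. Levels compared or summed between genes rest on this choice. The mean levels of a member over the 5 groups spanned least for Setdb1, whose highest group was 1.23 times its lowest, and most for Suv39h1 (3.36 times) and Kdm4c (3.69 times). In edgeR's test over the 5 groups, all 10 members differed between groups (adjusted p from 1.05e-09 for Kdm4c to 0.00629 for Setdb1), as did 79% of all genes tested.

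**Figure D1:**
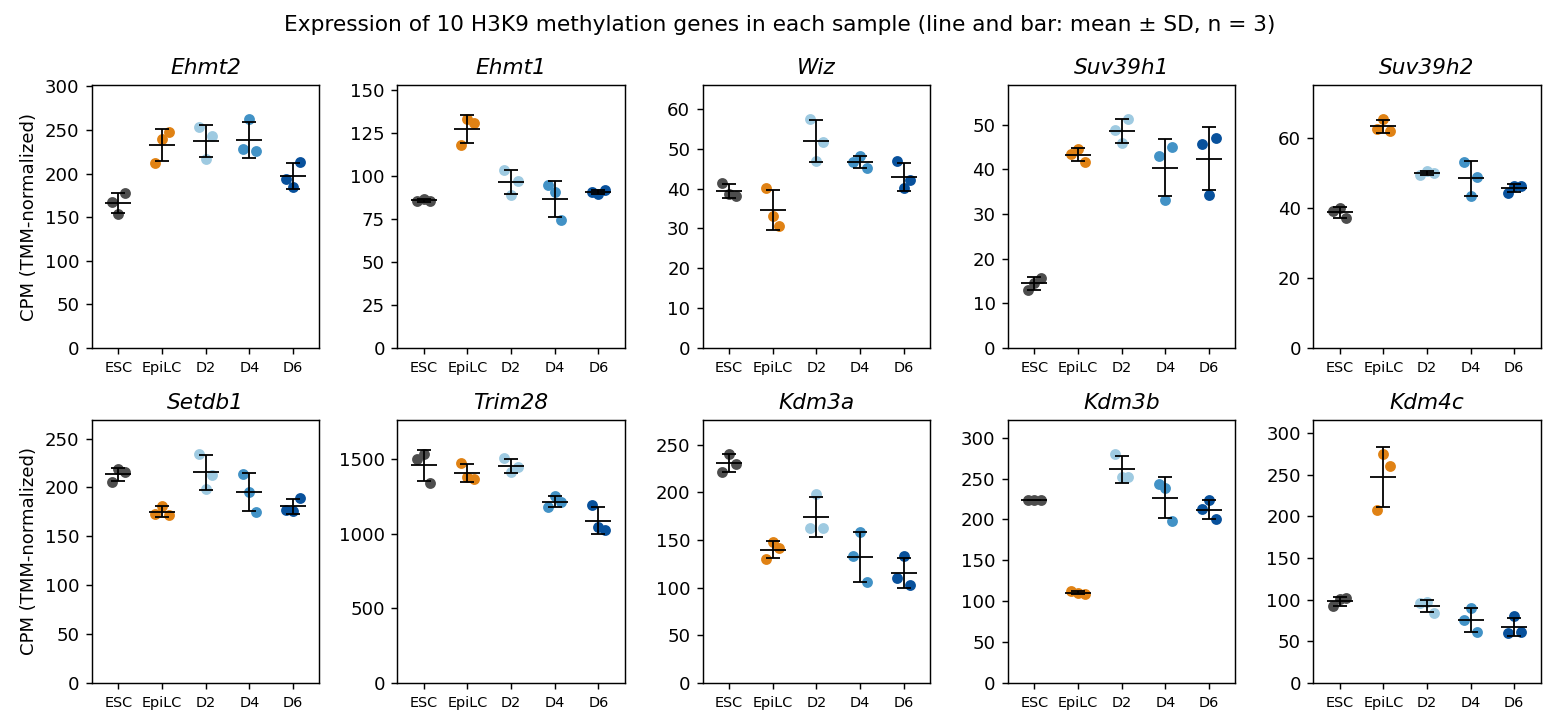
TMM-normalized CPM (y axis, from 0) of the 10 members in each of the 15 samples by group (x axis), with a point for each sample and the mean ± SD (n = 3) in black. Kdm4c stood at 207 to 275 CPM in EpiLCs and at or below 102 CPM in the other groups, whereas Kdm3b stood at 109 to 112 CPM in EpiLCs and at or above 198 CPM elsewhere.

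The largest changes lay at the entry to and the exit from the EpiLC state. A gene is said to have risen or fallen where its adjusted p (edgeR's quasi-likelihood test, Benjamini-Hochberg adjustment over 18090 genes) was under 0.05, and it was counted as a DEG where its log2 fold change was also above 1 or below -1. From ESCs to EpiLCs, 5 members rose and 3 fell, beside 52.5% of all genes tested that passed (26.3% higher and 26.2% lower), and 3 members were DEGs beside 26.2%. From EpiLCs to D2PGCLCs, 4 members rose and 3 fell (53.2% of all genes passed, 27.2% higher and 26% lower), with 2 DEGs beside 25.4%. The members' median log2 fold change was 0.22 at the first step and 0.11 at the second, against -0.01 and 0.00 over all genes tested. The shares of members that passed were above the background at both steps, but they are counts of 10 genes.

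Within the PGCLCs the members moved little. From day 2 to day 4, Trim28 and Kdm3a fell and none rose, beside 11.9% of all genes passing (7.26% higher and 4.6% lower), with 0 DEGs beside 2.94%. Both calls were lost with library totals (adjusted p of 0.121 and 0.0797), when only the samples of these 2 groups were fitted (adjusted p of 0.0960 and 0.0980), and without D2PGCLC replicate 1 or 3 or D4PGCLC replicate 1 or 3 (0 members). From day 4 to day 6, 0 of 10 members passed in edgeR, against 12.8% of all genes (6.03% higher and 6.82% lower), and 0 were DEGs beside 3.08%. At this step 1 member had an unadjusted p under 0.05, beside 27.6% of all genes, and DESeq2 called 1, Ehmt2, among 2926 of 18089 genes. Over the whole interval from day 2 to day 6, 7 members fell and none rose, beside 37.7% of all genes passing (19.5% higher and 18.2% lower), and none was a DEG, beside 13.6%. All 10 fitted values were below 0, as were 50% of those of all genes, and the members' median was -0.27 against 0.00. This comparison rested on the scaling: with library totals in place of TMM, the median of all genes moved to 0.16, 2 members (Trim28 and Kdm3a) fell, and 8 of 10 values were below 0. With D2PGCLC replicate 1, D6PGCLC replicate 1 or D6PGCLC replicate 2 left out, 4 members fell. Trim28, Kdm3a and Kdm3b also fell in all 15 fits that left out 1 sample.

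**Figure D2:**
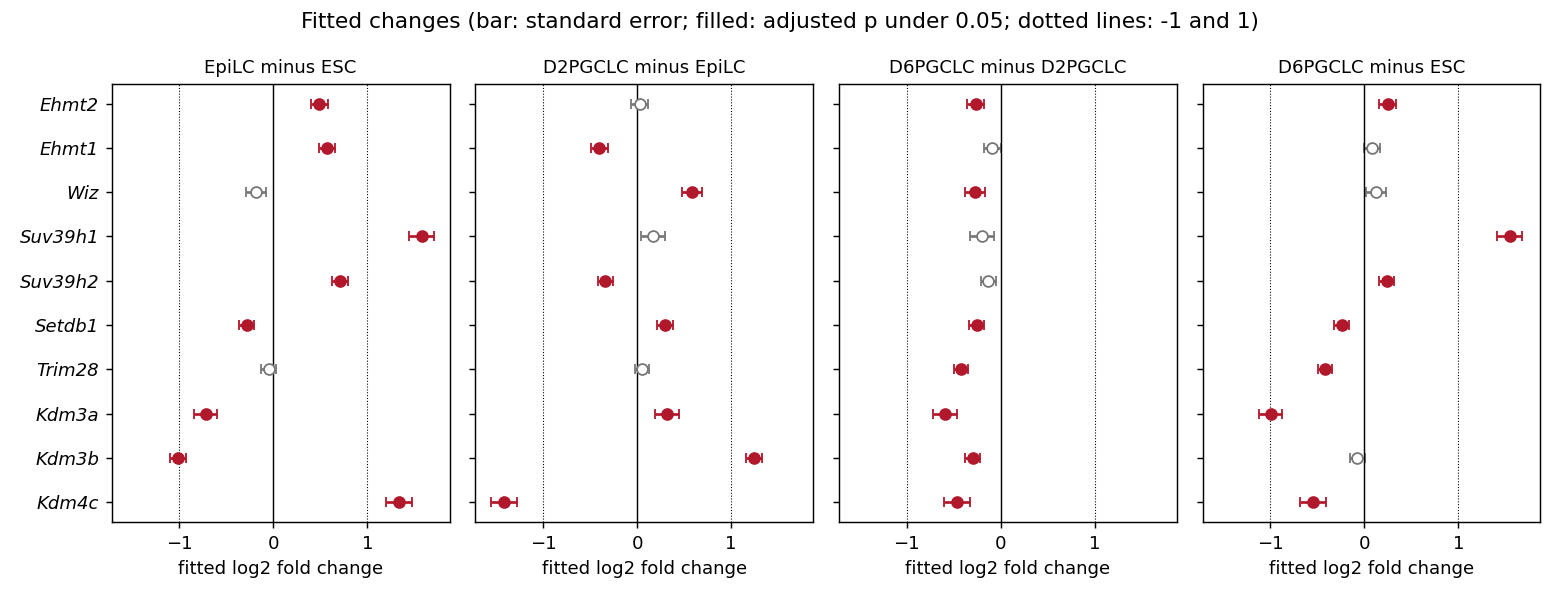
Fitted log2 fold change (x axis) of each member (y axis) in 4 comparisons, with the standard error as a bar, filled red points for an adjusted p under 0.05 and dotted lines at -1 and 1. The points spread from -1.42 to 1.58 at the 2 EpiLC steps, whereas all 10 lay between -0.59 and -0.09 from D2PGCLCs to D6PGCLCs with TMM scaling.

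Ehmt1 and Ehmt2, the paired writers of the dimethyl mark, rose together on leaving the naive state, and Ehmt1 then fell. Ehmt1 (ENSMUSG00000036893, mm10 chromosome 2, 24789928 to 24919614, minus strand) stood at 85.9, 86.8 and 85.4 CPM in ESCs, 118, 133 and 131 in EpiLCs, 104, 89.3 and 97.0 in D2PGCLCs, 94.8, 90.9 and 74.8 in D4PGCLCs, and 90.8, 89.8 and 91.9 in D6PGCLCs. The 3 EpiLC samples lay above all 12 others, and the PGCLC groups overlapped each other. Ehmt1 rose in EpiLCs by 0.57 ± 0.09 on the log2 scale (SE, adjusted p = 2.21e-05), fell by 0.40 ± 0.09 in D2PGCLCs (adjusted p = 0.000728), and in D6PGCLCs its log2 difference from ESCs was 0.08 ± 0.09 (adjusted p = 0.466).

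Ehmt2 (ENSMUSG00000013787, chromosome 17, 34898469 to 34914052, plus strand) stood at 168, 154 and 177 CPM in ESCs, 212, 239 and 248 in EpiLCs, 253, 217 and 243 in D2PGCLCs, 228, 262 and 226 in D4PGCLCs, and 194, 185 and 213 in D6PGCLCs. The ESC samples were the lowest 3 of the 15, and the EpiLC, D2PGCLC and D4PGCLC samples overlapped. It rose by 0.49 ± 0.09 in EpiLCs (adjusted p = 0.000171). At the next step, where Ehmt1 fell, its log2 fold change was 0.03 ± 0.09 (adjusted p = 0.816). It fell by 0.27 ± 0.09 from D2PGCLCs to D6PGCLCs (adjusted p = 0.0257) and was still above ESCs on day 6 by 0.25 ± 0.09 (adjusted p = 0.0271). The fall was lost with library totals (adjusted p = 0.401) and without D2PGCLC replicate 1 or 3 or D6PGCLC replicate 1 or 2 (adjusted p up to 0.104), and the difference from ESCs without ESC replicate 1 or 2 or D6PGCLC replicate 3 (adjusted p up to 0.133).

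The ratio of Ehmt1 to Ehmt2 within a sample, per base of exon, needs no scaling between samples. It was 0.346, 0.382 and 0.326 in ESCs and 0.378, 0.377 and 0.359 in EpiLCs, which overlapped (exact two-sided permutation test, p = 0.4, 3 against 3). In D2PGCLCs it was 0.277, 0.278 and 0.271, below every EpiLC sample, a log2 difference of -0.43 (exact permutation p = 0.1, the smallest that 3 against 3 can give). In D6PGCLCs it was 0.316, 0.329 and 0.291, which overlapped ESCs (exact permutation p = 0.2).

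Wiz, the partner of the dimer, rose on entry to the PGCLC state. Wiz (ENSMUSG00000024050, chromosome 17, 32354055 to 32389439, minus strand) stood at 41.5, 38.7 and 38.1 CPM in ESCs, 40.1, 33.2 and 30.6 in EpiLCs, 57.4, 46.9 and 51.7 in D2PGCLCs, 46.7, 48.1 and 45.2 in D4PGCLCs, and 46.8, 40.1 and 42.1 in D6PGCLCs. The 3 D2PGCLC samples lay above all ESC and EpiLC samples, and neighbouring groups in the order of the means overlapped. At the EpiLC step its log2 fold change was -0.19 ± 0.11 (adjusted p = 0.144, and 0.0295 without EpiLC replicate 1), and it rose by 0.59 ± 0.10 from EpiLCs to D2PGCLCs (adjusted p = 0.000113). From day 2 to day 6 it fell by 0.28 ± 0.10 (adjusted p = 0.0438), a call lost with library totals (adjusted p = 0.461), with DESeq2's size factors (0.0571), without the filter (0.0602), with only these 2 groups (0.0861) and without D2PGCLC replicate 1 or 3, D6PGCLC replicate 2 or 3, ESC replicate 2 or 3 or EpiLC replicate 2 (adjusted p up to 0.189).

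Suv39h1, a writer of heterochromatic trimethylation, had the largest rise of the list and kept it. Suv39h1 (ENSMUSG00000039231, chromosome X, 8061171 to 8074760, minus strand) stood at 13.0, 14.6 and 15.7 CPM in ESCs, 43.4, 44.6 and 41.7 in EpiLCs, 48.8, 45.9 and 51.2 in D2PGCLCs, 43.0, 33 and 45.0 in D4PGCLCs, and 45.7, 34.2 and 47.1 in D6PGCLCs. All 12 samples after the ESC state were at least 33 CPM, and the ESC samples were at most 15.7 CPM. It rose 2.99-fold in EpiLCs (log2 1.58 ± 0.13, adjusted p = 9.39e-09), and D6PGCLCs were 2.92-fold above ESCs (log2 1.55 ± 0.13, adjusted p = 1.36e-08). From EpiLCs to D6PGCLCs its log2 fold change was -0.03 ± 0.12 (adjusted p = 0.848), and 0.18 with library totals.

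The exons of Suv39h1 share 767 bases, 14.6% of their length, with the antisense gene Gm14820 on the other strand. Gm14820 stood at 21.4 ± 1.90 CPM in ESCs and 3.99 ± 1.37 CPM in EpiLCs (SD, n = 3), which is -2.42 ± 0.27 on the log2 scale (adjusted p = 4.67e-07), and at 6.24 ± 1.97 CPM in D6PGCLCs. The kit kept the strand, but the sources used here do not state whether the counting did, and without it reads of the shared bases cannot be told apart.

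Suv39h2, its paralog, rose at the same step and then came down. Suv39h2 (ENSMUSG00000026646, chromosome 2, 3455815 to 3475031, minus strand) stood at 39.2, 40.1 and 37.2 CPM in ESCs, 62.7, 65.4 and 62.1 in EpiLCs, 49.6, 50.7 and 50.1 in D2PGCLCs, 53.3, 43.4 and 49.0 in D4PGCLCs, and 44.5, 46.4 and 46.4 in D6PGCLCs. The EpiLC samples were the highest 3 of the 15 and the ESC samples the lowest 3. It rose by 0.71 ± 0.08 on the log2 scale in EpiLCs (adjusted p = 7.89e-07), fell by 0.34 ± 0.08 in D2PGCLCs (adjusted p = 0.00181), and on day 6 was above ESCs by 0.24 ± 0.08 (adjusted p = 0.0207). This last call was lost without the filter on low counts (adjusted p = 0.0863) and without ESC replicate 1 or 3 or D6PGCLC replicate 2 (adjusted p up to 0.0705). Suv39h2 shares 357 exon bases with Dclre1c, a DNA repair nuclease gene on the other strand, whose own counts fell by 0.64 ± 0.15 from ESCs to EpiLCs (adjusted p = 0.00167).

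Per base of exon, Suv39h1 stood at 0.278, 0.305 and 0.354 of Suv39h2 in the ESC samples and at 0.578, 0.570 and 0.562 in the EpiLC samples. In D2PGCLCs the ratio was 0.822, 0.757 and 0.856, and in D6PGCLCs 0.861, 0.618 and 0.848. Which paralog is the higher rests on the length used, whereas changes of the ratio between groups do not. Suv39h1 has 5270 joined exon bases and 3116 in its longest transcript, and Suv39h2 has 4410 and 4327. The groups did not overlap from ESCs to EpiLCs, from EpiLCs to D2PGCLCs, or from ESCs to D6PGCLCs, where the log2 difference was 1.30 (exact permutation p = 0.1 for each of the 3, the smallest possible).

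Setdb1 and Trim28, the enzyme and the corepressor of the KRAB zinc finger pathway, had the smallest ranges of the 10. Setdb1 (ENSMUSG00000015697, chromosome 3, 95323525 to 95357202, minus strand) stood at 206, 218 and 216 CPM in ESCs, 173, 181 and 172 in EpiLCs, 234, 199 and 213 in D2PGCLCs, 214, 196 and 175 in D4PGCLCs, and 177, 176 and 189 in D6PGCLCs. The EpiLC samples lay below all ESC and D2PGCLC samples, and D6PGCLCs overlapped them. It fell by 0.28 ± 0.08 on the log2 scale in EpiLCs (adjusted p = 0.00660), rose by 0.30 ± 0.08 in D2PGCLCs (adjusted p = 0.00468), and in D6PGCLCs was lower than in ESCs (log2 -0.24 ± 0.08, adjusted p = 0.0179), a call lost with library totals (adjusted p = 0.197) and without ESC replicate 2 or 3 or D6PGCLC replicate 1 or 2 (adjusted p up to 0.0773). Its exons share 75 bases with Cers2, a ceramide synthase gene on the other strand, which fell by 0.45 ± 0.08 in EpiLCs (adjusted p = 0.000187) and rose by 0.46 ± 0.08 in D2PGCLCs (adjusted p = 0.000160).

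Trim28 (ENSMUSG00000005566, chromosome 7, 12999114 to 13031035, plus strand) stood at 1500.4, 1534 and 1339 CPM in ESCs, 1476, 1378 and 1364 in EpiLCs, 1507, 1411 and 1446 in D2PGCLCs, 1177, 1255 and 1213 in D4PGCLCs, and 1195, 1045 and 1024 in D6PGCLCs. The ESC, EpiLC and D2PGCLC samples overlapped, and all 6 samples of days 4 and 6 lay below all 9 of these. Its log2 fold change was -0.05 ± 0.08 at the first step and 0.05 ± 0.08 at the second (adjusted p of 0.593 and 0.617). It fell by 0.26 ± 0.08 from day 2 to day 4 (adjusted p = 0.0333) and by 0.42 ± 0.08 from day 2 to day 6 (adjusted p = 0.000309). D6PGCLCs were below ESCs (log2 -0.42 ± 0.08, adjusted p = 0.000132). The lower level on day 6 relative to EpiLCs (log2 -0.37 ± 0.08) was lost with library totals (adjusted p = 0.0902).

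The erasers of the dimethyl mark, Kdm3a and Kdm3b, fell together on entry to the EpiLC state, where both writers of that mark rose. Kdm3a (ENSMUSG00000053470, chromosome 6, 71588972 to 71632990, minus strand) stood at 222, 240.3 and 229.9 CPM in ESCs, 130.2, 148 and 141 in EpiLCs, 163, 199 and 162 in D2PGCLCs, 134, 158 and 106 in D4PGCLCs, and 111, 133 and 103 in D6PGCLCs. The ESC samples were the highest 3 of the 15, and EpiLC, D4PGCLC and D6PGCLC samples overlapped. It fell by 0.72 ± 0.12 on the log2 scale in EpiLCs (adjusted p = 7.97e-05) and was higher in D2PGCLCs by 0.32 ± 0.12 (adjusted p = 0.0378), a call that DESeq2 did not make (adjusted p = 0.0697) and that was lost without EpiLC replicate 1 or 3 or D2PGCLC replicate 2 (adjusted p up to 0.175). It then fell by 0.59 ± 0.12 from day 2 to day 6 (adjusted p = 0.00105), and D6PGCLCs stood 2.00-fold below ESCs (log2 -0.997 ± 0.125, adjusted p = 2.08e-06), just inside the DEG cutoff and so not counted as one.

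Kdm3b (ENSMUSG00000038773, chromosome 18, plus strand) dipped in EpiLCs and came back. It stood at 223 CPM in each of the 3 ESC samples, 112, 109.6 and 109 in EpiLCs, 280.0, 252 and 252 in D2PGCLCs, 244, 238 and 198 in D4PGCLCs, and 213, 223 and 200.4 in D6PGCLCs. The EpiLC samples were the lowest 3 of the 15, with the next lowest at 198 CPM, and the D2PGCLC samples were the highest 3. Kdm3b fell 2.02-fold in EpiLCs (log2 -1.02 ± 0.08, adjusted p = 5.41e-09) and rose 2.37-fold in D2PGCLCs (log2 1.24 ± 0.08, adjusted p = 4.30e-10). On day 6 its log2 difference from ESCs was -0.07 ± 0.08 (adjusted p = 0.456).

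The ratio of Kdm3a to Kdm3b per base of exon was 1.70, 1.84 and 1.76 in ESCs and 1.99, 2.32 and 2.22 in EpiLCs. It dropped to 0.996, 1.35 and 1.10 in D2PGCLCs and was 0.892, 1.02 and 0.879 in D6PGCLCs. With this length, Kdm3a was the higher of the pair in every ESC and EpiLC sample and the lower in 2 of the 3 D6PGCLC samples. Where the ratio crosses 1 rests on the length used. The joined exons have 8225 bases for Kdm3a and 14095 for Kdm3b, and the longest transcripts 4853 and 6363. Changes of the ratio between groups do not rest on it. The log2 difference was -0.93 from EpiLCs to D2PGCLCs and -0.93 from ESCs to D6PGCLCs, with no overlap of the groups (exact permutation p = 0.1 for each, the smallest possible). The 9 ratio comparisons of the 3 pairs, adjusted together, could not pass, since none can go below 0.1.

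**Figure D3:**
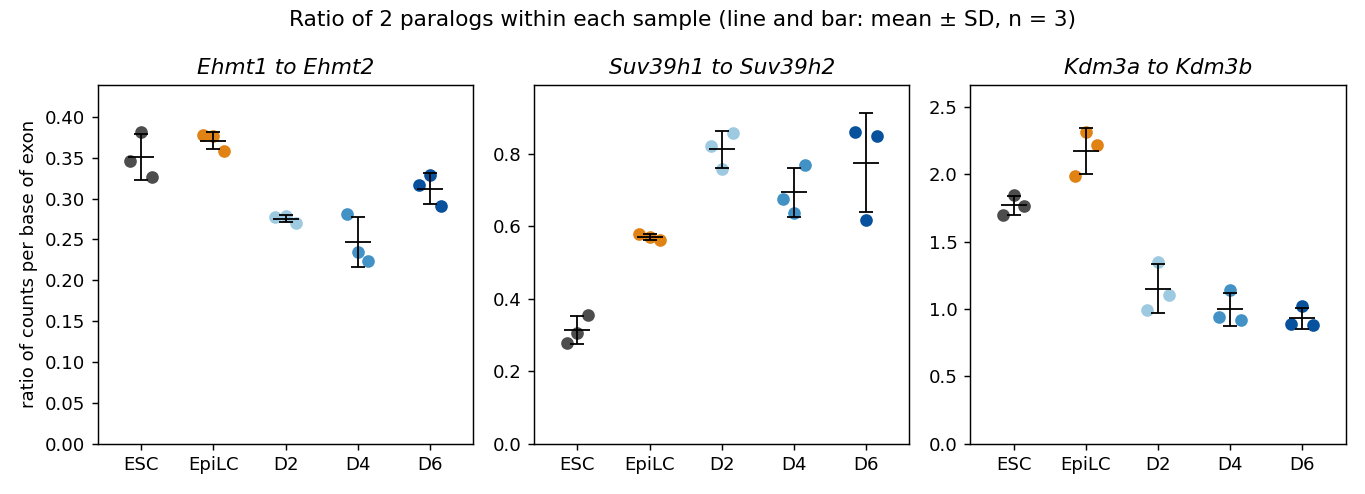
Ratio of each pair of paralogs per base of exon within each sample (y axis, from 0) by group (x axis), with a point for each sample and the mean ± SD (n = 3) in black. Suv39h1 to Suv39h2 went from 0.278 to 0.354 in ESCs to 0.757 to 0.856 in D2PGCLCs, whereas Kdm3a to Kdm3b went from 1.99 to 2.32 in EpiLCs to 0.996 to 1.35 in D2PGCLCs.

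As a description chosen after the values were seen, the summed RPKM of the writers Ehmt1 and Ehmt2 divided by that of the erasers Kdm3a and Kdm3b was 0.859 to 0.978 in ESCs and 2.24 to 2.46 in EpiLCs. It was 1.20 to 1.49 in D2PGCLCs, 1.59 to 1.87 in D4PGCLCs and 1.40 to 1.88 in D6PGCLCs. The EpiLC samples were the highest 3 and the ESC samples the lowest 3, and the 3 days of PGCLCs lay between them, with day 6 overlapping the other 2 days. Jmjd1c, a further gene of the KDM3 family that is not in this sum, rose 2.26-fold in EpiLCs from 169 ± 13.0 to 383 ± 29.5 CPM (SD, n = 3; edgeR adjusted p = 1.05e-07), opposite to Kdm3a and Kdm3b.

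Kdm4c, an eraser of the trimethyl mark, rose where Kdm3b fell and fell where it rose at both EpiLC steps. With TMM scaling, both fell from day 2 to day 6. Kdm4c (ENSMUSG00000028397, chromosome 4, 74242497 to 74405860, plus strand) stood at 91.8, 100.1 and 102 CPM in ESCs, 207, 275 and 260.1 in EpiLCs, 96.3, 97.3 and 83.9 in D2PGCLCs, 75.1, 90.5 and 60.8 in D4PGCLCs, and 59.7, 80.1 and 61.3 in D6PGCLCs. Each EpiLC sample was at least 207 CPM and each other sample at most 102 CPM. It rose 2.52-fold in EpiLCs (log2 1.33 ± 0.14, adjusted p = 1.61e-07), fell 2.67-fold in D2PGCLCs (log2 -1.42 ± 0.14, adjusted p = 7.92e-08), and by day 6 was 3.69-fold below EpiLCs (log2 -1.88 ± 0.14, adjusted p = 1.85e-09). D6PGCLCs were also below ESCs (log2 -0.55 ± 0.14, adjusted p = 0.00238). The fall from day 2 to day 6 (log2 -0.46 ± 0.14, adjusted p = 0.0122) was lost without D6PGCLC replicate 1 or 3 (adjusted p up to 0.0614). It was also lost with library totals (adjusted p = 0.0815), as was that of Kdm3b (adjusted p = 0.202). In EpiLCs, per length, Kdm4c reached 42.5 ± 6.13 RPKM, beside Ehmt2 at 42.4 ± 3.40 RPKM (SD, n = 3), and in D6PGCLCs it was at 11.5 ± 1.94 RPKM.

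In bulk samples, a lower share of cells with a transcript and less of it per cell cannot be told apart. The EpiLC samples, in which Kdm4c was highest and Kdm3b lowest, also had the highest fibroblast marker sums given above. These sums were 22.4 to 23.5 CPM, mostly from Thy1 and Dcn. Their part in the levels of Kdm4c and Kdm3b was not tested, and it cannot be told apart from that of the group.

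Against the starting populations as a whole, the D6PGCLCs differed from EpiLCs in 7 of 10 members (2 higher and 5 lower, beside 57.4% of all genes passing, 30.2% higher and 27.2% lower). The higher ones were Wiz and Kdm3b, and the lower ones Ehmt1, Ehmt2, Trim28, Suv39h2 and Kdm4c. With library totals, under which the median of all genes moved to 0.25, 3 were higher and 3 lower. The calls of Ehmt2 and Wiz were lost without EpiLC replicate 2 or 3 or D6PGCLC replicate 1 (adjusted p up to 0.144 and 0.0860), and that of Ehmt2 also without D6PGCLC replicate 2, without the filter on low counts (adjusted p = 0.0520) and with library totals (0.811). The replicates of both genes overlapped between these groups. Kdm3a (log2 -0.27 ± 0.12, adjusted p = 0.0663) passed as lower with DESeq2 (adjusted p = 0.0309), with its size factors (0.0365), without the filter (0.0233), with these 2 groups alone (0.0241) and without D4PGCLC replicate 2 or 3 or D6PGCLC replicate 2 (0.0172 to 0.0398). Relative to ESCs, 3 members were higher on day 6 (Suv39h1, Suv39h2 and Ehmt2) and 4 lower (Setdb1, Trim28, Kdm3a and Kdm4c), beside 53.7% of all genes passing (27.7% higher and 26% lower). Suv39h1 was the single DEG of the latter comparison, beside 26.2% of all genes, and Kdm4c that of the former, beside 27.9%. These comparisons share their D6PGCLC samples. The D6PGCLC samples in them also had the endoderm marker sums of 7.40 to 16.6 CPM given above, mostly from Gata6.

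Promoters of the members were read for short sequences of the 4 transgene factors. These were induced at the step from EpiLCs to D2PGCLCs, where the medium and the form of culture also changed. At the earlier step from ESCs to EpiLCs, made without doxycycline, 8 members passed, beside 52.5% of all genes tested. A link of the members' levels to the transgenes was not tested. RefSeq windows of 300 bases, from 250 before a start site to 50 after it (GRCm38.p6), were given for 9 members, 17 windows in all; Kdm3b had no entry. The sequences searched on both strands, chosen with the expression results known, were GCCNNNGGC for TFAP2C, GGTCTCTAA for PRDM14, GAAAGTGAA for PRDM1 and CCATTA for NANOG. The 4 windows that held a match are shown 5′ to 3′ on the strand of the gene, with the match in capitals.
Kdm4c, chr4:74251629-74251928, plus strand: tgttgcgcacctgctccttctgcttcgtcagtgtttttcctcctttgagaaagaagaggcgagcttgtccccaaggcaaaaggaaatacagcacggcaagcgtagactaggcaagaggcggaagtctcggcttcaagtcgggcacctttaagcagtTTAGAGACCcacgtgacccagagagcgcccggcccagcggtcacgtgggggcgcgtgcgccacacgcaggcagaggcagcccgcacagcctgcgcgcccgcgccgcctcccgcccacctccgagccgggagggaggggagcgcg
Kdm3a, chr6:71632868-71633167, minus strand: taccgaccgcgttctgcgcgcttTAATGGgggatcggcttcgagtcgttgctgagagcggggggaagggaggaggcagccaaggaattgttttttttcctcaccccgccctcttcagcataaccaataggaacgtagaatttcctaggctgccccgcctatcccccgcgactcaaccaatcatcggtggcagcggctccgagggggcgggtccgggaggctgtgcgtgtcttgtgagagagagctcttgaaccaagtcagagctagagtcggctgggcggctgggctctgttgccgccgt
Wiz, chr17:32387768-32388067, minus strand: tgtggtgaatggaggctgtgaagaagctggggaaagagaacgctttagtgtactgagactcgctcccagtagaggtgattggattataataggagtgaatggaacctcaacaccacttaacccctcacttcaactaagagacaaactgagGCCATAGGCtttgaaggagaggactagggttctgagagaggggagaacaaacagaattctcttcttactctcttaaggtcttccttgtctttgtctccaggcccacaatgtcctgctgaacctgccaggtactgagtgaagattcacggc
Wiz, chr17:32364414-32364713, minus strand: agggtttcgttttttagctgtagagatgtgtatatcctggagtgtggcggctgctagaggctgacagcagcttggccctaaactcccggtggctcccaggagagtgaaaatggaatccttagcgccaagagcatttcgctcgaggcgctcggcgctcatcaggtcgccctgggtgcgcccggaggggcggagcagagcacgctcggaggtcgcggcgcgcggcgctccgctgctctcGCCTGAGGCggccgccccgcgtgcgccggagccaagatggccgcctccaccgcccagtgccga
The Kdm4c window held the PRDM14 sequence, as its reverse complement, at bases -94 to -86 from the start, as did 0.256% of 32817 promoters of the same length. The Kdm3a window held the NANOG sequence, also reversed, at -227 to -222 (7.72% of promoters). The 2 Wiz windows held the TFAP2C sequence at -100 to -92 and at -13 to -5 (16.6% of promoters). No window of a member held the PRDM1 sequence (0.579% of promoters). A match is a stretch of letters, and no binding was measured here. Of the 17 windows, 14 held more CpG dinucleotides than the median promoter, which had 7, and the counts ran from 0 to 40.

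A list of 34 further genes of H3K9 methylation gave the setting of the members, and 33 of them were tested. Kdm4d, another eraser of the trimethyl mark, was not, with 0 counts in every ESC and EpiLC sample and 9 to 22 counts in the D6PGCLC samples. From ESCs to EpiLCs, 14 of the 33 rose and 7 fell (26.3% and 26.2% of all genes), and from EpiLCs to D2PGCLCs 9 rose and 13 fell (27.2% and 26% of all genes), with medians of 0.17 and -0.17 on the log2 scale against -0.01 and 0.00 over all genes. From D2PGCLCs to D4PGCLCs 3 rose and 6 fell (7.26% and 4.6% of all genes), and from D4PGCLCs to D6PGCLCs 2 rose and 4 fell (6.03% and 6.82%). From D2PGCLCs to D6PGCLCs 4 rose and 14 fell (19.5% and 18.2% of all genes), with a median of -0.24 against 0.00 over all genes. On day 6, 5 were higher and 18 lower than in EpiLCs (30.2% and 27.2% of all genes), and 5 higher and 12 lower than in ESCs (27.7% and 26%). All these counts are with TMM scaling, and counts of the list with library totals are not given here. With library totals the median of all genes moved to 0.16 from D2PGCLCs to D6PGCLCs and to 0.25 from EpiLCs to D6PGCLCs.

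The genes of that list with the largest changes were of several kinds. Zfp57, a KRAB zinc finger gene that protects imprints through TRIM28, went from 393 ± 9.72 CPM in ESCs to 77.3 ± 10.9 CPM in EpiLCs (log2 -2.34 ± 0.10, adjusted p = 1.22e-12), and D6PGCLCs were 2.67-fold above EpiLCs (adjusted p = 1.00e-09). Zfp568, another KRAB zinc finger gene, rose 2.58-fold from EpiLCs to D2PGCLCs (adjusted p = 1.91e-09). Pphln1, a subunit of the HUSH silencing complex that works with SETDB1, rose 2.84-fold in EpiLCs (adjusted p = 1.38e-10). Zfp462, a zinc finger gene linked to recruitment of EHMT1 and EHMT2, rose 2.74-fold in EpiLCs (adjusted p = 2.87e-10) and was 2.65-fold above ESCs on day 6 (adjusted p = 5.56e-10), although it fell by 0.86 ± 0.09 on the log2 scale from day 2 to day 6 (adjusted p = 1.43e-06).

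Readers and maintenance factors moved as well. Hells, a chromatin remodeller needed for repeat silencing, went from 1003 ± 96.1 CPM in EpiLCs to 379 ± 24.5 CPM in D2PGCLCs (log2 -1.41 ± 0.10, adjusted p = 9.42e-10). Uhrf1, which reads H3K9 methylation for DNA methylation maintenance, was 2.67-fold lower in D6PGCLCs than in ESCs (adjusted p = 2.00e-09), and Cbx5, which encodes heterochromatin protein HP1 alpha, was 1.75-fold lower (adjusted p = 2.39e-06) and fell by 0.35 ± 0.10 on the log2 scale from day 4 to day 6 (adjusted p = 0.0293), with overlap of the replicates. Jmjd1c, a relative of Kdm3a and Kdm3b, was 2.70-fold lower in D6PGCLCs than in EpiLCs (adjusted p = 7.34e-09). The chromodomain gene Cdyl2 fell 2.45-fold in EpiLCs (adjusted p = 1.05e-07), rose 2.34-fold in D2PGCLCs (adjusted p = 2.16e-07) and by a further 0.57 ± 0.12 on the log2 scale to day 4 (adjusted p = 0.00629), and its relative Cdyl fell by 1.06 ± 0.09 from day 2 to day 6 (adjusted p = 8.34e-08).

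**Figure D4:**
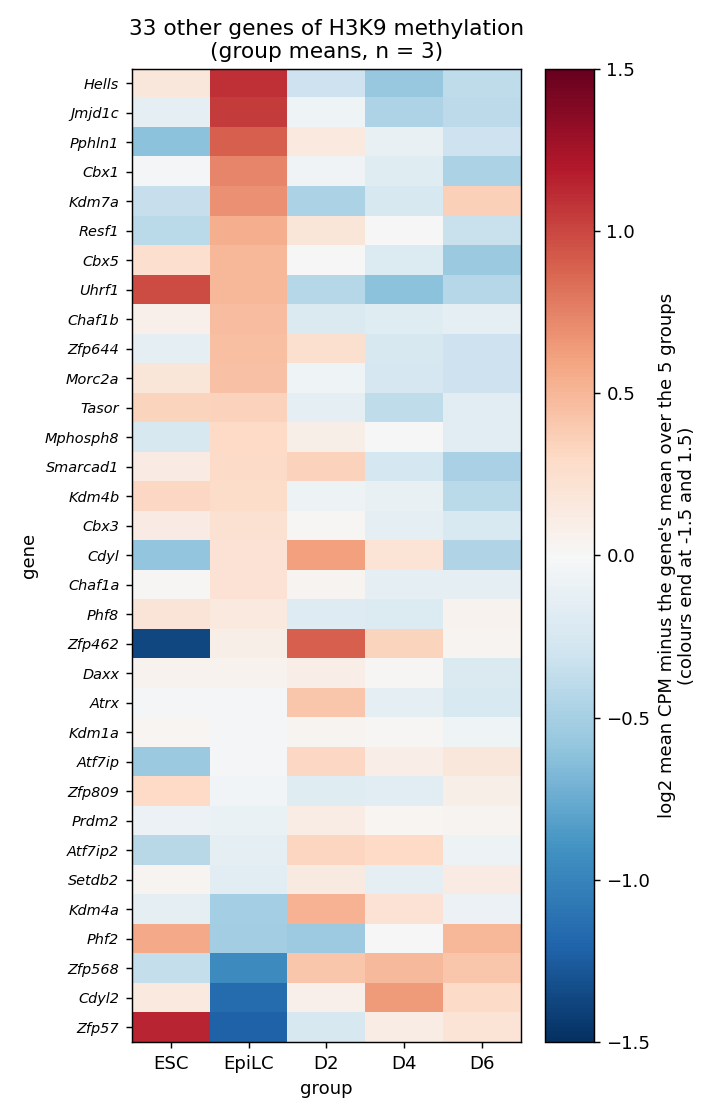
Group means of the 33 tested genes of the further list (rows, ordered by their EpiLC value) in the 5 groups (columns), as log2 mean CPM minus the gene's own mean over the groups, with colours ending at -1.5 and 1.5. Hells was highest of its groups in EpiLCs (1003 CPM) and Zfp57 lowest there (77.3 CPM).

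The late steps held smaller changes. Smarcad1, a remodeller that binds TRIM28, fell by 0.61 ± 0.09 on the log2 scale from day 2 to day 4 (adjusted p = 0.000383) and by 0.84 ± 0.09 to day 6 (adjusted p = 2.14e-06). Atrx, which deposits histone H3.3 at silent repeats, fell by 0.57 ± 0.16 from day 2 to day 4 (adjusted p = 0.0296), with overlap of the replicates, and Zfp462 fell by 0.57 ± 0.09 (adjusted p = 0.000627). The PHD finger eraser genes Kdm7a and Phf2 rose from day 4 to day 6 by 0.60 ± 0.15 and 0.50 ± 0.16 (adjusted p of 0.0131 and 0.0490), and Cdyl fell by 0.65 ± 0.09 (adjusted p = 0.000155). Phf2 rose 2.08-fold from day 2 to day 6 (adjusted p = 7.74e-05). Kdm7a had fallen 2.24-fold from EpiLCs to D2PGCLCs (adjusted p = 3.00e-06).

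The genes most like each member were taken from 8973 protein-coding genes by Pearson's r of log2(CPM + 1) over the 15 samples, which share groups and scaling, so r is a description. Nearest to Kdm4c were Xpo7 (r = 0.992), Csnk2a1 (0.984) and Smarcc1 (0.984), and nearest to Kdm3b were Mtmr12 (0.990), Slc44a1 (0.982) and Vps54 (0.981). Nearest to Suv39h1 were Rcbtb2 (0.973), Mios (0.973) and Cdcp1 (0.970), to Suv39h2 Emb (0.971), Atad1 (0.965) and Enpp2 (0.962), and to Ehmt1 Camsap2 (0.974) and Ascc3 (0.973). The nearest genes of Kdm3a (Gmeb1, Slc6a6 and Nrp2), Wiz (Neurl4, Ube3b and Zbtb22), Trim28 (Vipas39, Isg20l2 and Sf3b4), Ehmt2 (E2f8, Cep41 and Zfyve1) and Setdb1 (Polr2a, Chd3 and Senp1) had r between 0.901 and 0.960. Among the members, the highest r was between Ehmt1 and Kdm4c (0.877) and the lowest between Kdm3b and Kdm4c (-0.824).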

How the data were processed

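RNA-seq was analysed in 15 samples, grouped by their labels. The authors purified RNA (TRIzol), made stranded libraries (NEBNext Ultra II Directional), mapped them to mm10 with ENSEMBL gene models and deposited raw counts per gene, not normalized. The submitters' processing notes name Trim Galore, FastQC and STAR, with no versions. How reads were counted, the annotation release and the use of strand are not given in the sources used here. All 55536 identifiers matched GENCODE M21, the source of symbols, coordinates and exon lengths. In the shallowest sample, 3 counts are 0.133 CPM before TMM scaling.

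The counts were tested with edgeR 4.0.16 in R 4.3.3 (TMM, filterByExpr at its default of 10 counts, a quasi-likelihood model with the 5 group means over all 15 samples, Benjamini-Hochberg adjustment over 18090 genes). The study's methods name DESeq2, which was an alternative (version 1.42.0). The script was checked on simulated counts. Replicates of a group differed by more than counting error (chi-square per gene of 8.82 to 44.6), so each sample was 1 replicate. Ratios of paralogs had exact permutation tests on the log2 scale. Named were all members, the 4 genes of the further list with the largest change among those passing in each comparison, and the 3 protein-coding genes most like each member among those with a mean of at least 10 CPM. One of these genes is not reported here. The members, lists and promoter sequences were chosen with earlier results of these data known, and no list was tested. Alternatives were DESeq2, its size factors in edgeR, library totals, keeping all genes with a count, a block for replicate number, fits of 2 groups alone, a fold cutoff and leaving out each sample.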

Additional observations from a re-analysis of the deposited data

How the results depend on the processing

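Of the 420 values of single members under alternatives that kept all samples, 378 kept their direction and side of the threshold, and of 1050 with 1 sample left out, 983 did. No member that passed changed sign under any of these. With the fold cutoff, the members passing numbered 3 (EpiLC against ESC), 2 (D2PGCLC against EpiLC), 0 (D4 against D2PGCLC), 0 (D6 against D2PGCLC), 1 (D6PGCLC against EpiLC) and 1 (D6PGCLC against ESC). From day 2 to day 4 the count of 2 became 0 with library totals and 0 with only the 2 groups compared, 3 without the filter (Kdm4c added, adjusted p = 0.0431), and 0 to 2 without single samples (0 without D2PGCLC replicate 1 or 3 or D4PGCLC replicate 1 or 3, and 1 without any ESC replicate, EpiLC replicate 2 or 3 or D2PGCLC replicate 2). From day 4 to day 6 it became 1 with DESeq2 and 1 without the filter, and 0 to 1 without single samples (1 without EpiLC replicate 1, D2PGCLC replicate 2 or D6PGCLC replicate 3). From day 2 to day 6 it became 2 with library totals, and 4 to 7 without single samples. The causes were not tested.

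Values that changed sign had not passed. They were Ehmt2 from EpiLC to D2PGCLC (-0.0198 with DESeq2 and -0.0198 with its size factors) and from D2 to D4PGCLC (-0.0044, -0.0043 and, with only the 2 groups, -0.0121). With library totals they were Suv39h2 from D2 to D4PGCLC (0.0249), D4 to D6PGCLC (0.0085) and D2 to D6PGCLC (0.0334), Kdm3b from D4 to D6PGCLC (0.0014) and against ESC on day 6 (0.0357), Ehmt1 from D2 to D6PGCLC (0.0766) and Suv39h1 from EpiLC to D6PGCLC (0.18). Without single samples, Ehmt2 ranged from -0.0312 to 0.0961 (EpiLC to D2PGCLC) and -0.0678 to 0.0545 (D2 to D4PGCLC), Suv39h2 from -0.117 to 0.0271 (D2 to D4PGCLC), Ehmt1 from -0.0357 to 0.128 and Suv39h1 from -0.0591 to 0.196 (D4 to D6PGCLC), and Suv39h1 from -0.11 to 0.10 (EpiLC to D6PGCLC).

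Replicate numbers were not taken as pairs. Deviations of 30 same-numbered pairs from their group means correlated at 0.07 on average (-0.18 to 0.36, 8 of 30 above 0.1). The average was -0.04 for 60 other pairs (-0.40 to 0.26, 4 of 60 above 0.1). With a block for the replicate number, the count from day 4 to day 6 became 1 (Ehmt2, adjusted p = 0.0458), Kdm3a passed from EpiLC to D6PGCLC (adjusted p = 0.0121), and no other call of a member changed.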
